A study of Mus musculus with 6 samples.

Results

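Dietary fat is taken up by the absorptive cells of the small intestine, the enterocytes, in which small cytosolic binding proteins carry fatty acids and retinol, acyltransferases rebuild triglycerides, and a transfer protein loads these onto apolipoprotein B to form chylomicrons that leave the cell carrying other apolipoproteins. The genes of this route are commonly used as markers of mature enterocytes, and several of them are also active in the liver. Tuft cells are a rarer, chemosensory cell type of the same epithelium and are not known for fat absorption. The 10 genes described here, Apoa1, Apoa4, Apob, Apoc3, Mttp, Fabp1, Fabp2, Rbp2, Dgat1 and Cd36, were chosen by name as enterocyte lipid handling genes, out of 23420 genes in the table, and all 10 were found there. Their levels and their joint change across libraries were measured in sorted ileal tuft cells.

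The data were 6 RNA-sequencing libraries that form 1 group, each labelled as a separate mouse replicate. The mice carried the Gfi1b-eGFP reporter on the C57BL/6J background (Gfi1b eGFP/+), in which 1 allele of the transcription factor gene Gfi1b expresses green fluorescent protein and so labels the tuft cells among epithelial cells. The methods give an age of 6 to 12 weeks for the mice. Tuft cells from the distal 10 cm of the small intestine were sorted as GFP+, EpCam+, CD45- and propidium iodide-negative cells, with no treatment named in the labels. Only tuft cell libraries were analysed here, so no level is compared with the remaining epithelium. The study calls the samples independent, and p-values measure the spread between these libraries. In such bulk samples more cells of a type and more RNA per cell cannot be told apart. Values are TPM, the number of transcripts of a gene relative to all transcripts, which are corrected for transcript length and sum to 1000000 in each library. Since they keep no sequencing depth, a value of 0 has no detection limit.

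Tuft cell markers were abundant in every library, and markers of other epithelial cells were present as well. All 15 of 15 tuft cell markers were above 0 in every library, with 6662 to 11347 TPM in sum, among them the cation channel gene Trpm5 (1141 ± 211 TPM, SD, n = 6). Of a list of 12 enterocyte markers that holds none of the 10 genes, 12 were above 0 in every library, with 943 to 1901 TPM in sum, led by the keratin gene Krt20 (246 ± 55.8 TPM) and the aminopeptidase gene Anpep (240.3 ± 109 TPM). The sums were 3562 to 21414 TPM for 7 Paneth cell markers, led by the alpha-defensin genes Defa24 (5147 ± 4080 TPM) and Defa17 (1787 ± 1223 TPM), whose near-identical copies make single values uncertain, and 778 to 4318 TPM for 7 goblet cell markers, led by Zg16 (848 ± 511 TPM) and Tff3 (532 ± 313 TPM). For 9 enteroendocrine markers the sum was 379 to 536 TPM, most of it from Sct (384 ± 50.5 TPM) ahead of Gcg (18.2 ± 21.4 TPM). Of these 9 markers, 3 were above 0 in every library. Other sources of lipid transport genes were close to 0. Of 8 hepatocyte markers, 5 were listed at 0 in every library, among them Alb, Fga and Fgb, and the sum was at most 16.4 TPM, from Tat (5.39 ± 3.96 TPM) and Ttr (3.27 ± 4.13 TPM). Of 6 endothelial markers, 4 were at 0 in every library, and Plvap (11.2 ± 6.94 TPM) made up nearly all of the sum of 2.85 to 21.3 TPM, with Pecam1 at no more than 0.28 TPM. The 7 macrophage markers summed to 3.22 to 19.8 TPM, led by Lyz2 (4.16 ± 3.07 TPM) and C1qb (3.11 ± 2.87 TPM), and of 5 adipocyte markers 4 were at 0 throughout, the fifth being Cidec (0.90 ± 1.11 TPM). Of 6 T cell markers, 5 were found in the table and summed to 91.6 to 179 TPM, of which Ptprc, the gene of CD45 and not limited to T cells, had 112 ± 42.0 TPM, while Cd7, the next, had 9.21 ± 6.75 TPM. Rn45s, the ribosomal RNA precursor, took 23.1% to 32.6% of TPM, and Gm20594 had 15588 to 21283 TPM in replicates 1 to 3 and 51804 to 56441 TPM in replicates 4 to 6.

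Lipid absorption genes were present at very unequal levels, from among the most abundant of all genes to nearly none. Of the 10 genes, 9 were above 0 in all 6 libraries, and the same 9 had a mean of at least 10 TPM. Together they made up 0.587% to 1.48% of TPM, and Fabp1 alone accounted for 63.9% to 88.2% of their sum.

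Fabp1, the liver-type fatty acid-binding protein, which is also made by enterocytes, held 12794, 9867, 5041, 6419.8, 4226 and 6112 TPM across replicates 1 to 6. Its mean was 7410 ± 3269 TPM (SD, n = 6), and in each library its own value ranked between 4th and 12th of all genes. It was highest in replicates 1 and 2 and lowest in replicate 5, a 3.03-fold range. Fabp2, the intestinal fatty acid-binding protein, held 632, 360.4, 229, 1204, 798 and 563 TPM, with a mean of 631 ± 345 TPM. It was highest in replicate 4 and lowest in replicate 3, and Fabp1 was 5.29 to 27.4 times as abundant as Fabp2 in the same library. Rbp2, the cellular retinol-binding protein of the intestine, belongs to the same protein family and was far less abundant, at 11.5, 9.63, 14.0, 88.4, 68.1 and 28.1 TPM (mean 36.6 ± 33.5 TPM). All 3 of its values in replicates 1 to 3 lay below all 3 in replicates 4 to 6.

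The apolipoprotein genes were led by Apoa1, which encodes the main protein of high-density lipoprotein and is also placed on chylomicrons. Its values were 1096, 752, 452, 1444, 1186 and 715 TPM across replicates 1 to 6. The mean was 941 ± 364 TPM (SD, n = 6), and each library's value lay above 97.8% to 99.6% of the genes listed above 0 in that library. Apoa4, a chylomicron apolipoprotein made mainly by the intestine, had 135, 68.6, 11.3, 126, 132 and 32.35 TPM, a mean of 84.2 ± 54.6 TPM. It was high in replicates 1, 4 and 5 and low in replicates 3 and 6, over a 11.97-fold range. Apoc3, an inhibitor of triglyceride clearance, had 26.8, 36.1, 4.19, 92.3, 62.1 and 21.5 TPM, a mean of 40.5 ± 31.7 TPM and the widest relative range of the 9 genes above 0 throughout, 22.03-fold. Apob, the structural protein without which no chylomicron forms, was the lowest of the apolipoprotein genes among the 10, with 8.99, 14.8, 13.55, 29.6, 15.9 and 20.4 TPM (mean 17.2 ± 7.10 TPM), and Apoa1 exceeded it 33.3- to 122-fold in the same library.

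The enzymes and the transfer protein of chylomicron assembly varied least. Dgat1, which makes the last step of triglyceride synthesis, had 54.0, 44.4, 57.04, 96.7, 56.97 and 83.0 TPM, with a mean of 65.3 ± 20.004 TPM (SD, n = 6). Mttp, the microsomal transfer protein that loads lipid onto apolipoprotein B, had 51.45, 35.4, 48.4, 57.5, 68.5 and 60.2 TPM, a mean of 53.6 ± 11.3 TPM. The 1.93-fold range of Mttp was the smallest of the 9 genes above 0 in every library. Cd36, a membrane receptor for long-chain fatty acids, was nearly absent, at 0.39, 1.46, 0.05, 0.97, 0 and 0.07 TPM. Given the unknown depth, its 0 in replicate 5 says only that it was listed at 0. Cd36 is known to be more active in the proximal than in the distal intestine, and in endothelial cells and macrophages, whose markers were low here as given above. No library of the proximal intestine was part of the data. The part of region or of these cells in the low level of Cd36 was not tested.

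**Figure D1:**
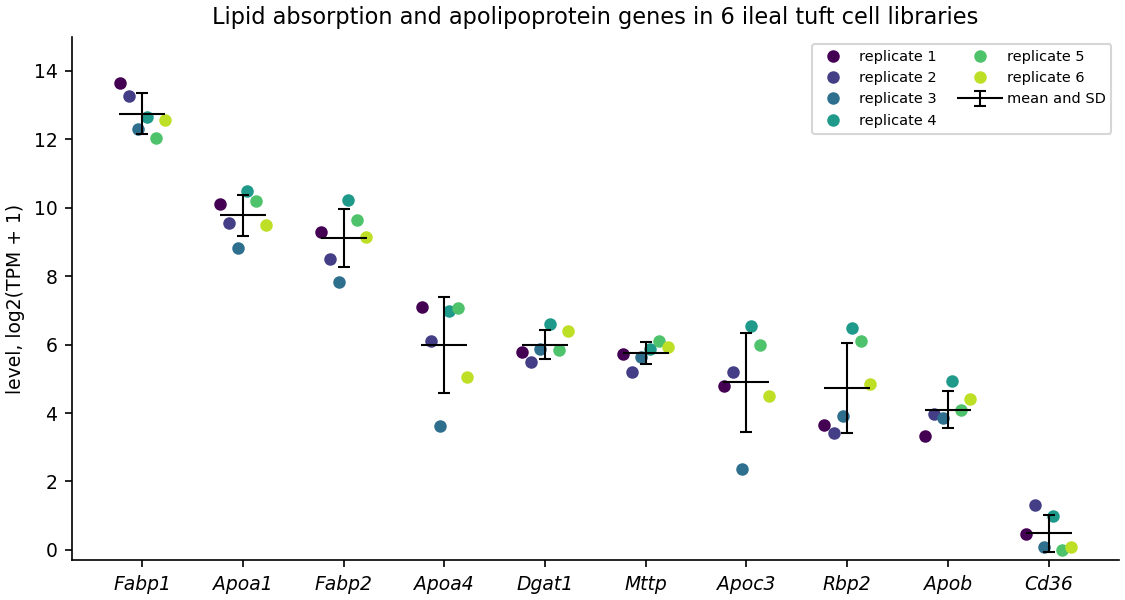
Level of each of the 10 genes, as log2(TPM + 1), in replicates 1 to 6 (coloured points), with the mean and SD over the 6 libraries in black, ordered by mean TPM. Fabp1 stands above all others at 4226 to 12794 TPM, Apoa4, Apoc3 and Rbp2 spread most, and Cd36 stays at or below 1.46 TPM.

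Because TPM is corrected for length, the 10 genes could be set against each other within each library. This holds for the full-length SMART-Seq2 preparation of the methods. The labels also name a 3' polyA preparation, for which division by length would lower long genes such as Apob (13934 bases) against short ones such as Apoa1 (1035 bases), and which preparation each library had cannot be told apart here. For each of the 45 pairs the difference in log2(TPM + 1) was tested by exact permutation of its sign over the 6 libraries, two-sided, which can give no p below 0.03125, with Benjamini-Hochberg adjustment over the 45. In 33 of the 45 pairs 1 gene was higher in all 6 libraries, and these 33 pairs had exact p = 0.03125 and adjusted p = 0.0426. Among all pairs of genes that averaged 10 TPM or more, 61.6% had 1 gene higher in all 6 libraries. Without Cd36, which is below that level, the count was 24 of 36 pairs (66.7%), close to this background. Adjusted over all pairs of genes of that level the same exact p becomes 0.0507, which misses 0.05, so the calls hold within the family of 45 pairs and not in this wider one. Of the 9 neighbours in the order of mean TPM, 4 differed beyond their spread. Fabp1 exceeded Apoa1 by 2.97 ± 0.79 on the log2(TPM + 1) scale (SD, n = 6), Apoa1 exceeded Fabp2 by 0.67 ± 0.33, Fabp2 exceeded Apoa4 by 3.12 ± 0.87, and Apob exceeded Cd36 by 3.61 ± 0.68. The 5 neighbours in between did not pass the test. Dgat1 was higher than Mttp in 5 of 6 libraries by 0.26 ± 0.34 (exact p = 0.125, adjusted p = 0.144), and the differences between Apoa4 and Dgat1, Mttp and Apoc3, Apoc3 and Rbp2, and Rbp2 and Apob had adjusted p of 0.206 to 0.969. Within the 45 pairs, Fabp1, Apoa1 and Fabp2 lay above 6 genes of middle level in all 6 libraries, and Cd36 below them. Among those of middle level, Apoa4 exceeded Apoc3, and Dgat1 and Mttp each exceeded Apob (adjusted p = 0.0426, sign flipping). As such calls were about as common among all pairs of genes, this order is a description of the 10 genes. Without pairing, the exact Mann-Whitney test gave p = 0.240 for Apoa1 against Fabp2 (adjusted p = 0.285), whose ranges overlap between libraries.

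Of these genes, 3 lie side by side on chromosome 9. In GENCODE M21, an annotation of GRCm38 (mm10), Apoa1 (ENSMUSG00000032083.8) spans 46228580 to 46230466 on the plus strand with 4 exons, Apoc3 (ENSMUSG00000032081.10) spans 46232933 to 46235636 with 4 exons on the minus strand, and Apoa4 (ENSMUSG00000032080.6) spans 46240696 to 46243459 on the plus strand with 3 exons. The gap is 2466 bases between Apoa1 and Apoc3 and 5059 bases between Apoc3 and Apoa4. Apoa5, the next gene 25173 bases farther along, was listed at 0 in every library. The exons of Apoa4 share 634 and 632 bases with the opposite-strand genes Gm47528 and Gm10680, neither of them in the table, and those of Mttp (ENSMUSG00000028158.14; chromosome 3, 138089854 to 138144968, minus strand) share 457 bases with Trmt10a, which had at most 6.19 TPM. The strand setting of the counting is not given in the sources used here, so reads from both strands could have been joined there. The other 6 genes lie on chromosomes 3 (Fabp2), 5 (Cd36), 6 (Fabp1), 9 (Rbp2), 12 (Apob) and 15 (Dgat1), and their exons shared no base with another gene.

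Members of the apolipoprotein cluster and Fabp2 had similar profiles over the libraries, while Fabp1, the most abundant gene, had another, but no pair passed the test after adjustment. Across the 6 libraries the Pearson r of log2(TPM + 1) was 0.95 between Apoa1 and Fabp2, 0.95 between Apoa1 and Apoa4, 0.92 between Apoa1 and Apoc3, 0.89 between Apoa4 and Apoc3 and 0.88 between Fabp2 and Apoc3. All 4 genes were lowest in replicate 3, and the highest value was in replicate 4 for Apoa1, Fabp2 and Apoc3 and in replicate 1 for Apoa4. By two-sided exact permutation over the 720 pairings, the unadjusted p of these 5 pairs was 0.00556, 0.00833, 0.00972, 0.0250 and 0.0264, and after adjustment over the 45 pairs none passed 0.05 (smallest adjusted p 0.146). This permutation can give no p below 0.00139, so a single pair could not pass that adjustment even with a perfect r. Spearman's rho was 0.94 (exact p = 0.0167) for Apoa1 with Fabp2 and for Apoa1 with Apoc3, 0.77 (exact p = 0.103) for Apoa1 with Apoa4, 0.60 (exact p = 0.242) for Apoa4 with Apoc3 and 0.83 (exact p = 0.0583) for Fabp2 with Apoc3, and its smallest adjusted p was 0.375. With the 2 libraries farthest from the median of the first gene left out, r was 0.77, 0.92, 0.60, 0.28 and 0.34 for the same 5 pairs in that order (Apoa4 with Apoc3 before Fabp2 with Apoc3), so that the relations of Apoc3 with Apoa4 and Fabp2 did not hold over the 4 libraries left, whose range is narrower by construction. With any 1 library left out, r stayed at 0.64 or more for Apoa4 with Apoc3 and at 0.72 or more for Fabp2 with Apoc3.

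Replicate 3 carried much of this pattern. Without it r was 0.88 for Apoa1 with Fabp2, 0.86 for Apoa1 with Apoa4 and 0.80 for Apoa1 with Apoc3, while it was 0.64 for Apoa4 with Apoc3 and 0.72 for Fabp2 with Apoc3, and 1 of the 45 pairs had an unadjusted exact p under 0.05 in place of 5. Replicate 3 also had the lowest sum of tuft cell markers (6662 TPM). Its sums of enterocyte markers (956 TPM) and of Paneth cell markers (3815 TPM) were the second lowest. Those of goblet cell markers (1996 TPM) and enteroendocrine markers (450 TPM) were not among the lowest. The part of these cells in the low values was not tested. Centred within replicates 1 to 3 and 4 to 6, the sets that differ in Gm20594, r was 0.98, 0.97, 0.89, 0.93 and 0.82 for Apoa1 with Fabp2, Apoa1 with Apoa4, Apoa1 with Apoc3, Apoa4 with Apoc3 and Fabp2 with Apoc3. The 36 pairings within sets gave exact p of 0.0556 to 0.167 for these 5 pairs, with none of the 45 pairs under 0.05. Fabp1 with Apoa1, Fabp2, Apoa4 and Apoc3 had r of -0.03 to 0.34 uncentred. Centred, the same r was 0.65 to 0.73 (exact p of 0.194 to 0.306). It was 0.92 or more within replicates 1 to 3 and -0.43 to 0.15 within replicates 4 to 6. The separate profile of Fabp1 thus depended on the sets.

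Over all 45 pairs, the share with an unadjusted exact p under 0.05 was 11.1% (5 pairs), against 7.09% of the 69851 relations of the 10 genes with every gene of at least 10 TPM on average, and none of the latter passed adjustment over all of them (smallest adjusted p 0.626). An r of 0.9 or more was reached by 3 of 45 pairs, against 1.35% of all pairs of genes of that level, and r was above 0 in 37 of 45 pairs, against 56.6%. The median r of the 45 pairs was 0.37, and that of all pairs of genes was 0.09. Without Cd36, which is below 10 TPM, 3 of 36 pairs reached an r of 0.9, r was above 0 in 31 of 36 and the median r was 0.45. The 8 negative values involved Fabp1 or Cd36 in each case, down to -0.69 for Cd36 with Mttp, -0.62 for Fabp1 with Rbp2 and -0.59 for Fabp1 with Mttp. Seen from Apoa1, Fabp2, Apoa4 and Apoc3 were the 12th, 13th and 29th nearest of 6985 genes.

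**Figure D2:**
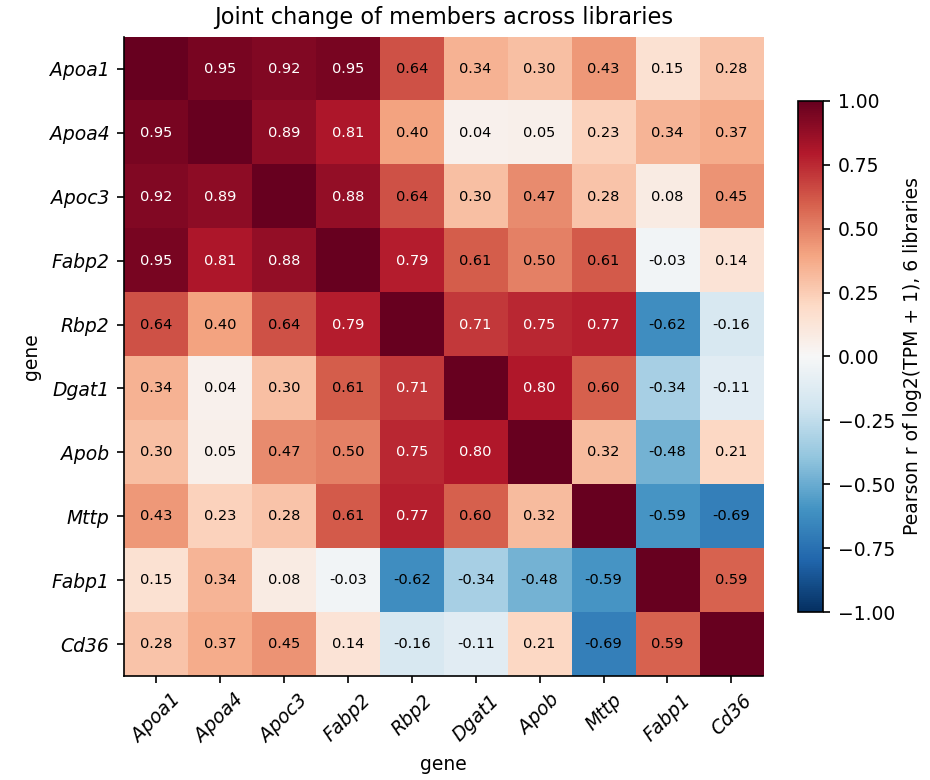
Pearson r of log2(TPM + 1) over 6 libraries for each pair of the 10 genes, printed in each cell and coloured from blue (-1) to red (1). The block of Apoa1, Apoa4, Apoc3 and Fabp2 lies between 0.81 and 0.95, and all negative values lie in the rows of Fabp1 and Cd36.

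The second pattern was a step between replicates 1 to 3 and replicates 4 to 6. Of the 9 genes of at least 10 TPM, every value of replicates 4 to 6 lay above every value of replicates 1 to 3 for Rbp2, Mttp and Apob (3 genes), against 2.93% of the 6986 genes of that level, and none lay below, against 16.8%. Rbp2 went from 9.63 to 14.0 TPM in replicates 1 to 3 to 28.1 to 88.4 TPM in replicates 4 to 6, Mttp from 35.4 to 51.45 TPM to 57.5 to 68.5 TPM, and Apob from 8.99 to 14.8 TPM to 15.9 to 29.6 TPM. These sets were defined from Gm20594 and are not groups of the study, so the values are a description with no test. After rescaling by median-of-ratios factors the count became 5 of 9 genes, against 6.33% of all genes.

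**Figure D3:**
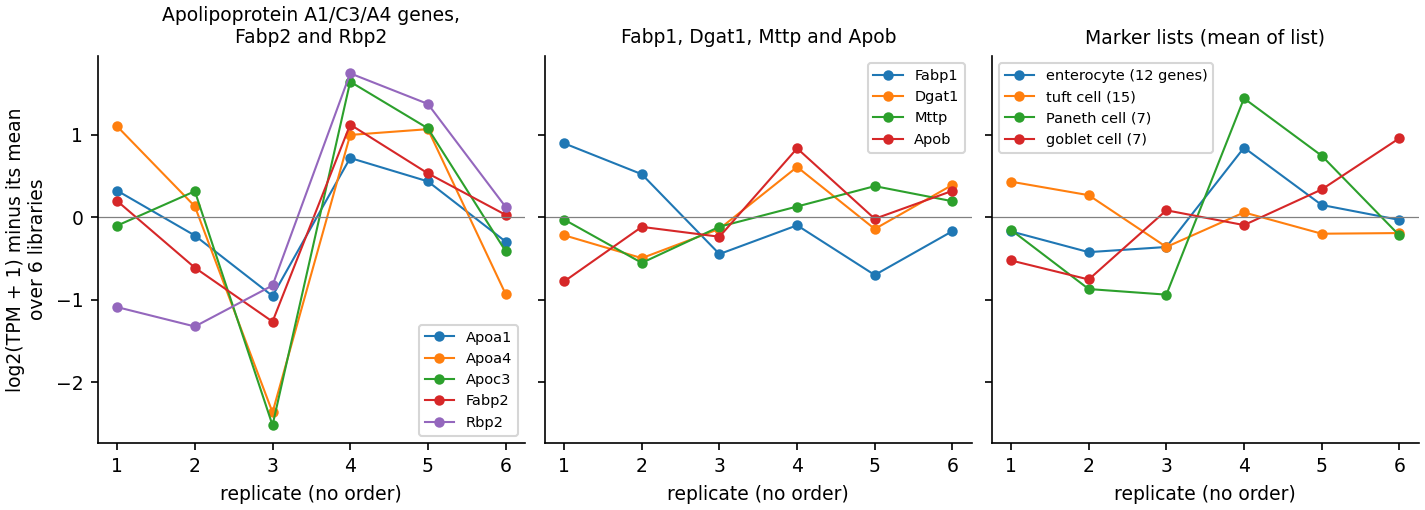
Deviation of log2(TPM + 1) from its mean over the 6 libraries, by replicate, for Apoa1, Apoa4, Apoc3, Fabp2 and Rbp2 (left), for Fabp1, Dgat1, Mttp and Apob (middle) and for the mean of 4 marker lists (right); replicates have no order and lines only join the values of 1 gene or list. Apoa4 at 11.3 TPM and Apoc3 at 4.19 TPM drop deepest in replicate 3, and Fabp1 is highest in replicates 1 and 2, where Rbp2 is lowest.

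The 10 genes were next set against the marker lists of enterocytes and of tuft cells, to see with which cells their RNA varied. Fabp1 was nearest to the tuft cell list and Rbp2 to the enterocyte list, but none of the 20 relations passed 0.05 after adjustment (smallest adjusted p 0.0694, exact permutation), and 4 had an unadjusted p under 0.05. For Fabp1 and the mean of the 15 tuft cell markers Pearson r was 0.93 (exact p = 0.00694) and Spearman's rho was 0.94 (exact p = 0.0167, adjusted p = 0.167), over 6 libraries. This r became 0.58 without the 2 libraries farthest from the median of the list, and 0.86 without replicate 1 (exact p = 0.0583). After median-of-ratios rescaling r was 0.84 (exact p = 0.0417). Centred within the 2 sets of libraries, r was 0.94 (exact p = 0.0278). High r was common for this gene. Fabp1 reached 0.9 or more with 3.22% of the 6985 genes of at least 10 TPM on average, against 1.35% of all pairs of such genes. With the enterocyte list the r of Fabp1 was -0.28 (exact p = 0.600). Rbp2 showed the reverse, with r = 0.90 (exact p = 0.00417) and rho = 0.94 (exact p = 0.0167, adjusted p = 0.167) with the enterocyte list, 0.89 without the 2 farthest libraries and 0.76 when centred within sets (exact p = 0.417), and r = -0.36 (exact p = 0.460) with the tuft cell list. Fabp2 had r = 0.87 with the enterocyte list (exact p = 0.0194; rho = 0.89, exact p = 0.0333), 0.88 without the 2 farthest libraries and 0.72 centred. Dgat1 had r = 0.81 (exact p = 0.0444; rho = 0.71, exact p = 0.136), but 0.24 without the 2 farthest libraries and 0.54 without replicate 4, which had the highest sum of enterocyte markers (1901 TPM). The remaining 6 genes with this list had r between 0.13 for Cd36 and 0.76 for Apob, with exact p of 0.0736 or more. Centred within sets, the r of Fabp2, Apoa1, Apoa4 and Apoc3 with the tuft cell list was 0.86 to 0.87 (exact p = 0.111). Uncentred, it was 0.26 to 0.65. With the enterocyte list their centred r was lower, at 0.72, 0.65, 0.45 and 0.49. For Rbp2, Dgat1, Mttp and Apob the enterocyte list gave the higher centred r. Paneth cell markers were also highest in replicates 4 and 5, at 21414 and 13246 TPM, where Rbp2, Apoc3, Fabp2 and Apoa1 were highest. Their part in these levels was not tested.

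**Figure D4:**
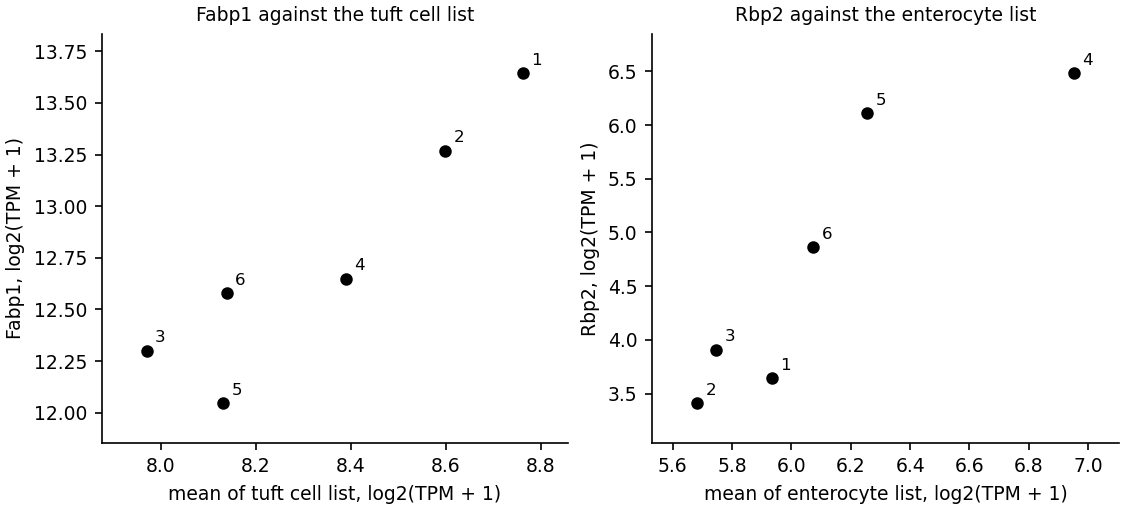
Level of Fabp1 against the mean of 15 tuft cell markers (left) and of Rbp2 against the mean of 12 enterocyte markers (right), all as log2(TPM + 1), 1 point a library with its replicate number. Pearson r is 0.93 on the left and 0.90 on the right, and neither passed 0.05 after adjustment.

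By shape across the 6 libraries, the genes of at least 10 TPM most like Fabp1 were Larp1b (r = 0.99), Ssx2ip (r = 0.99) and Hist1h2bc (r = 0.99). These names, chosen from 6985 genes, are a description. The nearest gene was Phf21a for Apoa1 (r = 0.98), Ndufs4 for Fabp2 (0.998), Cic for Apoa4 (0.999), Naip1 for Dgat1 (0.97), Ept1 for Mttp (0.99), Ccser1 for Apoc3 (0.99) and 5830417I10Rik for Cd36 (0.99). Apob was nearest to Slc5a1 (0.99), the intestinal sodium-glucose transporter and an enterocyte marker, which ran from 38.0 TPM in replicate 1 to 109 TPM in replicate 4.

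The promoters of 6 of the 10 genes are shown to set their sequences beside the levels of Hnf4a, a nuclear receptor that acts on many genes of fat absorption and had 134 ± 20.5 TPM (SD, n = 6). They were not chosen for joint change. RefSeq promoter sequences (GRCm38.p6) were found for 8 of the 10 genes. In the 250 bases before each start, the letters CAAAGNNCA, a form of the site bound by HNF4 receptors, occurred on either strand in 4 of the 8, namely Apoa4, Fabp2, Rbp2 and Apob, and in 5.49% of the 32851 promoters in the table. AGATAA on either strand, a GATA site, was found in Rbp2 and in 9.99% of all promoters, GTTAAT on either strand, one side of an HNF1 site, in Fabp1 and in 6.43%, and TATAAA on the coding strand in Fabp1, Rbp2 and Apob and in 7.59%. Rbp2 held 2 matches of CAAAGNNCA, and no match overlapped another. A match is not a bound site, and these data do not measure binding. The stretches below run 5′ to 3′ on the strand of the gene, from 250 bases before the RefSeq start up to the first base that GENCODE places in an exon of the gene, with the matches in capitals. That of Rbp2 lies within the span GENCODE gives the gene, which begins farther upstream, at 98486115. Apoa1, with no match, and Fabp1, whose TATAAA lies beyond the stretch shown, stand beside the 4 genes with CAAAGNNCA.
Apoa1 (chr9:46228380-46228579, plus strand): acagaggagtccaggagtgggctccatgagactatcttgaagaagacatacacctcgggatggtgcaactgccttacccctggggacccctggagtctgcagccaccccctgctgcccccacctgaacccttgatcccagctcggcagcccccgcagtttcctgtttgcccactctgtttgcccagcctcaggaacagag
Apoa4 (chr9:46240594-46240695, plus strand): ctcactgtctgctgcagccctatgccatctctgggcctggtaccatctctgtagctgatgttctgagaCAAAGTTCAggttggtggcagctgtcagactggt
Fabp2 (chr3:122894822-122895071, plus strand): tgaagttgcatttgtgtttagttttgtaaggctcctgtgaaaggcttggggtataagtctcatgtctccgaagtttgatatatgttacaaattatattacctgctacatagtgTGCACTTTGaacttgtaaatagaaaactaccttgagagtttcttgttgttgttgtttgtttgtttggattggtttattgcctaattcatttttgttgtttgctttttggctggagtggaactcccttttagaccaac
Rbp2 (chr9:98490287-98490536, plus strand): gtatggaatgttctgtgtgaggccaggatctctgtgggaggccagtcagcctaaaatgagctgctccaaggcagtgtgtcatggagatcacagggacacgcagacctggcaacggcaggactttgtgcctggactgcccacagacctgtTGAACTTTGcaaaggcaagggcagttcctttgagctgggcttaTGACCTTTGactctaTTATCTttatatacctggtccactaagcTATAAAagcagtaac
Apob (chr12:7977427-7977647, plus strand): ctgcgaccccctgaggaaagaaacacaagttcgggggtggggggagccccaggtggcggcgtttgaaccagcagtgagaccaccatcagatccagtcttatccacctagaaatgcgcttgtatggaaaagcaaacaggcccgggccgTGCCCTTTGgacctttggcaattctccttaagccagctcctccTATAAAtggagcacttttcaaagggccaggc
Fabp1 (chr6:71199629-71199826, plus strand): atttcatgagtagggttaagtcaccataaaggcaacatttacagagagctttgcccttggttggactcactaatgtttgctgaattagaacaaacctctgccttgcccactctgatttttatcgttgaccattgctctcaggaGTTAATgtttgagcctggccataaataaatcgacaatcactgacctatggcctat

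The other steps of the route were covered by 97 further genes in 9 lists by role, all found in the table, of which 80 were above 0 in every library, 70 had a mean of at least 10 TPM and 10 were listed at 0 throughout. Among 11 genes of fatty acid uptake and activation, 10 were above 0 in every library, led by Fabp6, the ileal bile acid-binding protein of the same family (1892 ± 493 TPM, SD, n = 6), and Dbi, an acyl-CoA-binding protein (1037 ± 124 TPM). Fabp4, the adipocyte family member, was listed at 0. Of 11 genes of triglyceride resynthesis, 10 were above 0 in every library, led by the acyltransferases Agpat2 (129 ± 25.4 TPM) and Agpat1 (74.8 ± 11.6 TPM). All 12 genes of chylomicron assembly and transport were above 0 in every library, led by P4hb, the partner subunit of Mttp (395 ± 119 TPM), and the cargo receptor gene Surf4 (132 ± 41.5 TPM). Of 10 other apolipoprotein genes, by contrast, 3 were above 0 in every library and 5 were at 0 throughout. Clu (54.3 ± 51.5 TPM) and Apoc2 (22.2 ± 13.9 TPM), the cofactor of lipoprotein lipase, led them.

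Of 9 genes of cholesterol transport and esterification, 7 were above 0 in every library, led by Lima1 (238 ± 53.3 TPM), which acts in the recycling of the cholesterol transporter, and that transporter itself, Npc1l1 (54.3 ± 19.6 TPM). The retinoid list had 5 of 8 genes above 0 in every library, led by 1300002K09Rik (106 ± 32.2 TPM) and the transcription factor gene Isx (58.8 ± 14.95 TPM). Of 10 lipid droplet and lipolysis genes, 7 were above 0 in every library, led by Cideb, which acts in lipoprotein lipidation (356 ± 117 TPM), and the monoglyceride lipase gene Mgll (84.7 ± 44.0 TPM). All 10 genes of fatty acid oxidation and ketogenesis and all 17 of the transcription factor list were above 0 throughout. The first were led by Hadhb (114 ± 18.2 TPM), the second by Cdx1 (269 ± 114 TPM) and Hnf4a. The median of the gene means ran from 0.200 TPM for the other apolipoproteins to 68.0 TPM for fatty acid oxidation, against 59.5 TPM for the 10 genes.

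**Figure D5:**
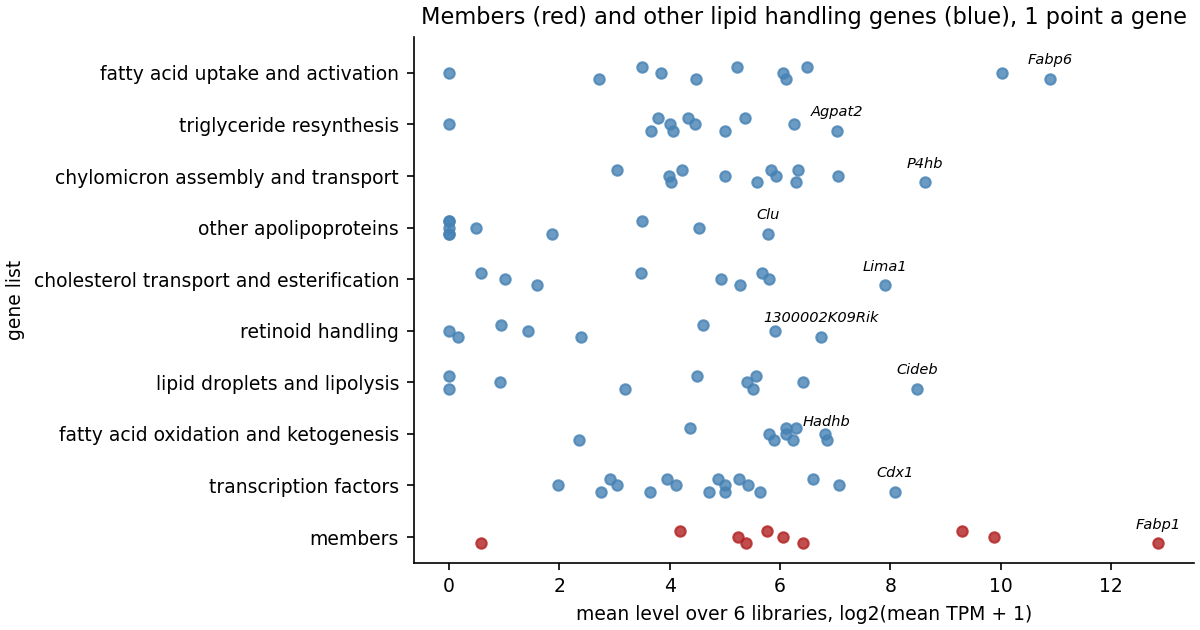
Mean level over the 6 libraries, as log2(mean TPM + 1), of the 10 genes (red) and of the other lipid handling genes by role (blue), 1 point a gene, with the highest of each list named. Fabp1 and Fabp6 lie farthest right, and 5 of 10 other apolipoprotein genes lie at 0.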

How the data were processed

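The authors made 6 libraries of sorted ileal tuft cells (modified SMART-Seq2, 18 cycles of amplification), aligned the reads by Bowtie with 1 mismatch allowed to mouse transcripts (UCSC, mm10), and deposited TPM from RSEM v1.2.3. The submitters' processing notes also name TopHat and DESeq2, and the labels name 3' polyA and droplet preparations beside SMART-Seq2. Deposited TPM values were used unchanged, and TPM keeps no depth. Columns were matched to replicates by number.

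Levels were compared as log2(TPM + 1), with a pseudocount of 1. Pairs of genes were compared within libraries by exact two-sided sign flipping (64 assignments). Correlations used exact permutation over 720 pairings. Both were adjusted by the Benjamini-Hochberg method over the 45 pairs or 20 relations. Genes averaging 10 TPM or more served as background. Named genes were the 10 members, the 2 most abundant of each list, the 3 nearest in pattern to the most abundant member and the nearest to each other member. Apoa5, Fabp4, Alb, Fga, Fgb and Trmt10a were named outside this rule, after their values were seen. A few genes that the rule names are not reported here. The members and lists were chosen with earlier results of these data known. Alternatives were other pseudocounts, values under 0.1 TPM set to 0, rescaling (median-of-ratios factors, or leaving Rn45s and Gm20594 out of the total), the Mann-Whitney test, Spearman's rho, centring within sets of libraries and leaving out each library. Statistics were tested on simulated data. Positions come from GENCODE M21 and promoters from RefSeq, both matched by symbol. Scripts ran in Python 3.11.15 with scipy 1.17.1, pandas 2.3.3 and numpy 2.4.6.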

Additional observations from a re-analysis of the deposited data

Results flagged for a closer look

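In 2 of 30 measures (the 10 genes, their sum and the sums of 19 gene lists), 1 library lay apart from the others by Dixon's ratio of its gap to the whole range, above the critical value for 6 libraries. Chance gives this in about 1 of 20 groups. The sum of the 12 enterocyte markers was 1901 TPM in replicate 4 and at most 1209 TPM in the others (ratio 0.722), and the sum of the 12 chylomicron assembly genes was 1236 TPM in replicate 3 and at most 940 TPM in the others (ratio 0.696). None of the 10 lipid absorption genes passed this value, the nearest being Apob, highest in replicate 4 (ratio 0.446).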

How the results depend on the processing

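No pair of the 10 genes and no relation with a marker list passed 0.05 after adjustment under any alternative run, so the joint changes are descriptions. These tests had little room to pass. The 720 pairings allow no p below 0.00139, and centring or leaving out a library allows fewer pairings still. The lack of calls therefore says little about whether the genes changed together. Before adjustment, the 5 pairs under 0.05 became 7 after median-of-ratios rescaling, 6 without Rn45s and Gm20594, 2 by Spearman's rho, 0 when centred within sets of libraries, and 1 to 6 with each library left out in turn (1 without replicate 3, 3 without replicate 4 and 3 without replicate 6). The 4 relations with marker lists became 7 after median-of-ratios rescaling, 1 when centred, and 2 to 5 with each library left out (2 without replicate 2). The median r over the pairs lay between 0.24 and 0.50 with each library left out, and the count of pairs with 1 gene higher in every library between 33 and 36. The only difference between neighbours in level that lost its call was that of Apoa1 and Fabp2, by the Mann-Whitney test, which called 31 of the 45 pairs. The order test was not repeated with a library left out, since 5 libraries cannot reach 0.05. Rescaling without Rn45s and Gm20594, which raises every other value by construction, moved 4 means by more than their SD, to 1385 TPM for Apoa1, 96.3 TPM for Dgat1, 79.1 TPM for Mttp and 25.4 TPM for Apob. The nearest gene by pattern was the same for 6 of 10 genes when genes of at least 1 TPM were admitted. No paired analysis was possible because the 6 libraries form 1 group, with no other group to pair them with (the test of levels pairs genes within a library, not samples). TPM keeps no depth, so how far the low values of Cd36 reflect shallow sequencing cannot be given.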
